A study of Mus musculus with 103 samples.

Results

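The comparison is between liver from old mice on a calorie-restricted diet and liver from old mice on a normal diet. Its arrays were chosen by their titles, and 46 of the 103 arrays of the series carried them: 24 from old restricted livers and 22 from old normal-diet livers. The series asked how ageing and caloric restriction affect daily gene expression in the liver. It covered young and old C57BL6/J mice kept on alternating 12 h periods of light and dark, with livers taken at 4 h intervals, at zeitgeber times (ZT, hours after lights on) 0, 4, 8, 12, 16 and 20. RNA was extracted with TRIzol, amplified by whole-transcriptome amplification and hybridised to Affymetrix arrays.

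All groups were of the same wild-type strain, and no allele or drug was named. The diet had lasted 25 weeks. The labels used here gave neither the degree of restriction nor the hour of feeding. The old restricted arrays were labelled as 83 to 97 weeks of age (median 88) and the old normal-diet arrays as 84 to 93 weeks (median 88). Per time point there were 3 to 5 restricted arrays and 3 or 4 normal-diet arrays. The remaining 57 arrays came from young mice, 32 restricted and 25 on the normal diet, and here they served to estimate the spread and for the test of diet by age. Their labelled ages were 47 to 56 weeks for the restricted arrays, apart from an array labelled 88 weeks, and 48 to 57 weeks for the normal-diet arrays, apart from an array labelled 23 weeks, which is less than the time on the diet. Without these 2 arrays 4975 genes passed for level in old liver, 2069 for diet by time and 2 for diet by age, against 4993, 2158 and 2 with all arrays. The labels numbered the replicates but did not say that each was a separate animal, and the p-values given here therefore speak only of sample-to-sample spread, part of which may be technical.

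The liver stores glucose as glycogen and makes fat from it when food is plentiful, and it releases glucose and burns fatty acids when food is scarce. Its genes also follow a daily rhythm set by a molecular clock. In that clock CLOCK or NPAS2 pairs with BMAL1 (gene Arntl) to switch on the Per and Cry genes, whose proteins then block the pair, while the nuclear receptors of the Nr1d family repress Arntl. Meal times are a strong time cue for the liver clock, and restricted mice tend to eat their ration in a short part of the day.

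Values were log2 intensities, so that a difference of 1 is a doubling. Each array's median over all probe sets lay between 5.06 and 5.22, and pairs of old arrays correlated at 0.9420 to 0.9959 over probe sets. The mean of 7 hepatocyte markers was at 11.59 to 11.84 on restricted arrays and 11.55 to 11.75 on normal-diet arrays, so the labelled tissue was borne out by its markers. The labelled sexes were not separated by sex-linked genes. Eif2s3y, a Y-linked gene, was at 9.24 ± 0.32 (SD, n = 24) on old arrays labelled female and 9.22 ± 0.25 (SD, n = 22) on those labelled male, and Xist, expressed from the inactive X chromosome, was at 4.33 ± 0.54 and 4.29 ± 0.26. On arrays labelled female Eif2s3y lay between 8.61 and 9.94 and Kdm5d, also Y-linked, between 6.49 and 7.48, while Xist lay between 3.43 and 5.78. Y-linked signal was thus present on every old array, whatever its label. The cause was not tested. Results for the labelled sexes apart are given only as subsets of arrays and are not read as a comparison of the sexes. The normal-diet array ZT16 replicate 2 stood apart: its neutrophil markers averaged 9.65, against at most 6.81 on any other old normal-diet array, and its macrophage markers 9.45 against at most 9.15. Over 18 clock genes, 41 of the 46 arrays lay nearest to the mean of their own labelled time (23 of 24 restricted, 18 of 22 normal-diet). Of the 5 exceptions, the normal-diet arrays ZT16 replicate 4 and ZT20 replicate 2 lay clearly nearer another time, at a distance of 0.51 from ZT20 (0.79 from its own) and 0.52 from ZT16 (1.17 from its own). They are called the 2 arrays of uncertain hour. Another exception, the normal-diet array ZT20 replicate 1, lay at 0.57 from ZT0 and 0.71 from its own time. It was kept when those 2 were left out, so that the normal-diet values of ZT20 then rest on it and replicate 3. The restricted array ZT4 replicate 2 was also high in neutrophil markers (7.67, next restricted array 6.42), macrophage markers (8.75, next 7.80) and cell cycle genes (6.42, next 5.7). Where leaving out these arrays (other than ZT20 replicate 1) ended the call of a gene's printed difference, that is stated beside it.

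To find genes whose level differed between the diets, the restricted minus normal-diet difference was taken at each ZT and averaged over the 6 times in limma, with p-values adjusted by the Benjamini-Hochberg method over the 11787 genes tested and a threshold of 0.05. At that threshold 4993 genes (42.4% of those tested) differed. Under restriction 2155 of them (18.3%) were higher and 2838 (24.1%) lower, and the median difference over all genes was -0.003. The split moved with the scaling of the arrays: 43.2% of the calls were higher as deposited, 60.0% of 5486 calls after quantile normalization and 57.4% of 5456 after centring each array on its median. Most differences were small. Of the 4993, 369 exceeded 1.5-fold, 78 higher and 291 lower, and 79 exceeded 2-fold, 17 higher and 62 lower. The median standard error of a difference was 0.046 averaged over the day and 0.113 at a single time. Gene lists are described by counts and medians, with no test of the list, to be read against these shares and this median over all genes. Where a list is said to have no member in a direction, none passed an unadjusted p of 0.05 in limma either. These are measurements of whole liver, in which fewer cells of a type and less RNA per cell cannot be told apart.

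For 10 genes the 24 restricted and the 22 normal-diet arrays did not overlap at all, whatever the hour. Among the 9 that were lower was Serpina12, which encodes the protease inhibitor vaspin. It lay between 4.83 and 6.75 on restricted arrays (median 5.94) and between 7.81 and 10.61 on normal-diet arrays (median 9.09). The averaged difference of -3.25 ± 0.20 (SE), 9.50-fold, was the largest of all genes that passed (limma, adjusted p = 7.99e-24). Slc10a2, the sodium-dependent bile acid transporter, lay between 3.55 and 5.54 under restriction (median 4.43) and between 6.11 and 7.65 on the normal diet (median 6.79), a 4.77-fold difference (adjusted p = 1.42e-27). Its size depends on the probe set: on the log2 scale it was -2.25 for the brightest probe set and -1.50 for the mean of its probe sets. Dio1, the deiodinase that activates thyroid hormone, had its highest restricted array at 8.57 and its lowest normal-diet array at 8.61. The respective medians were 7.42 and 9.28, and the averaged difference was -1.95 ± 0.18 (adjusted p = 1.75e-15). Mogat1, a monoacylglycerol acyltransferase, reached 5.93 at most under restriction and 6.07 at least on the normal diet (medians 5.22 and 7.11). Gbe1, the glycogen branching enzyme, stood between 5.55 and 6.99 on restricted arrays and between 7.02 and 8.27 on normal-diet arrays. The complement genes C1s1 and C4bp, with Sh3bgrl and Tbc1d31, were the other members that were lower on every restricted array. Gcat, a mitochondrial enzyme of threonine breakdown, was the single gene with every restricted array higher, by a narrow margin: its restricted arrays began and its normal-diet arrays ended at 8.55 when rounded, with medians of 8.87 and 8.29.

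**Figure D1:**
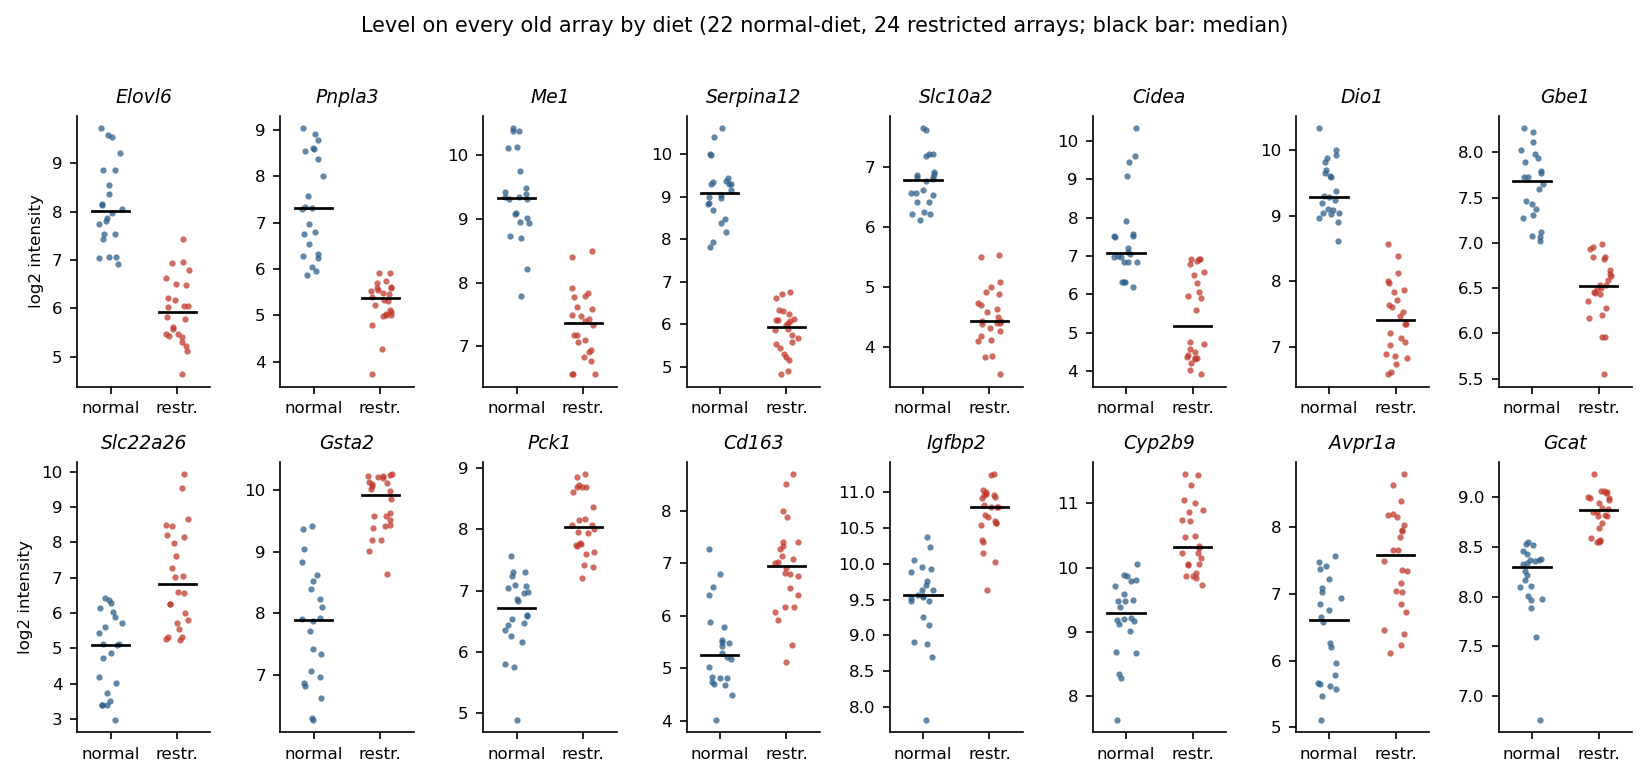
Log2 intensity (vertical axis) of 16 genes on every old array, with normal-diet arrays in blue and restricted arrays in red. Each point is an array, all 6 times together, and the black bar is the group's median. In the panels of Serpina12, Slc10a2, Dio1 and Gbe1 the groups do not overlap, whereas in the panel of Cd163 only 8 of the 24 restricted arrays lie above every normal-diet array.

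The genes of fat synthesis were lower under restriction. Of 19 measured members of a list for fatty acid and triglyceride synthesis, 17 fell, 1 rose (Dgat1, 0.25) and Dgat2, the other enzyme of the last step of triglyceride synthesis, was at -0.02 without passing. The list's median was -0.90, against -0.003 over all genes. Elovl6, which lengthens fatty acids, lay between 4.64 and 7.44 under restriction (median 5.93) and between 6.91 and 9.73 on the normal diet (median 8.02). Of the 24 restricted arrays, 21 were below every normal-diet array, and the difference was -2.21 ± 0.17 (4.63-fold, adjusted p = 2.07e-18). Pnpla3, a lipid-droplet protein, had medians of 5.37 and 7.31, with 22 restricted arrays below the normal-diet range, and differed by -2.18 ± 0.22. Me1, malic enzyme, a cytosolic source of NADPH for making fat, lay between 6.56 and 8.50 (median 7.37) against 7.79 to 10.43 (median 9.33). It fell by 2.02 on the log2 scale (4.05-fold, adjusted p = 2.7e-20). Thrsp, a lipogenic gene induced by thyroid hormone, had medians of 10.01 and 11.39 and fell by 1.74. The enzymes at the core of the pathway, Fasn (fatty acid synthase, -1.59), Acaca and Acacb (the acetyl-CoA carboxylases, -1.20 and -1.17), Acly (ATP citrate lyase, -0.90) and Acss2 (acetyl-CoA synthetase, -0.64), fell by less. Scd1, the main stearoyl-CoA desaturase of the liver, fell by 0.42.

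Outside that list, Cidea, a droplet protein of fat-laden liver, lay between 3.92 and 6.92 under restriction and between 6.19 and 10.33 on the normal diet, with medians of 5.17 and 7.08. The groups overlapped, 16 of 24 restricted arrays were below every normal-diet array, and the difference was -2.04 ± 0.39 (adjusted p = 1.32e-05). Fabp5, a fatty acid binding protein, fell by 1.91. Plin2, which coats lipid droplets, fell by 0.52. Fatty acid oxidation did not move one way: of 21 measured targets of the nuclear receptor PPAR-alpha and oxidation enzymes, 6 rose, 6 fell and the median was -0.02 (0.03 after quantile normalization). Cyp4a10 (0.48) and the acyl-CoA dehydrogenases Acadl and Acadvl (both 0.20) rose. Vnn1 (-1.06), the thiolase Acaa1a (-0.51) and Fgf21, a hormone of the fasted liver (-0.36), fell. Cpt1a, which admits fatty acids to mitochondria, was at -0.06 and did not pass.

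Genes of glucose production rose or fell singly, and those of glycolysis and glycogen mostly fell. Pck1, the gluconeogenic enzyme that makes phosphoenolpyruvate, lay between 7.21 and 8.90 under restriction (median 8.04) and between 4.89 and 7.57 on the normal diet (median 6.71). All but 3 of the restricted arrays were above every normal-diet array, a difference of 1.45 ± 0.16 (2.73-fold, adjusted p = 5.8e-12). Of the 10 measured genes for gluconeogenesis and its regulators 2 rose, Pck1 and the alanine transaminase Gpt (0.34), while G6pc, which releases free glucose, fell by 0.72 when averaged over the day. In the list for glycolysis and glycogen 8 of 12 fell and 2 rose, with a median of -0.23. Pklr, the liver pyruvate kinase, fell by 1.17 and Gbe1 by 1.16. Pygl, the liver glycogen phosphorylase, fell by 0.51 and the glycogen targeting subunit Ppp1r3b by 0.68. Its relative Ppp1r3c rose by 0.28, a call lost without ZT16 replicate 2 (adjusted p = 0.124). The acetyl-CoA list, which shares Acly and Acss2 with the lipid list, had 7 of 12 lower and none higher (1 higher after quantile normalization). Citrate synthase Cs (-0.47), Dlat (-0.55) and Pdha1 (-0.28), both of the pyruvate dehydrogenase complex, were among those that fell.

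Many genes of amino acid breakdown and of the ribosome rose, by small amounts. In the amino acid breakdown and urea cycle list 11 of 16 rose and none fell, with a median of 0.17. Hal, which breaks down histidine, rose by 0.62, Nags, which makes the activator of the urea cycle, by 0.41, and the urea cycle enzymes Otc and Cps1 by 0.20 and 0.17. Of 27 cytosolic ribosomal protein genes 20 rose and none fell, with a median of 0.15. Of 80 oxidative phosphorylation genes 34 rose and 4 fell, with a median of 0.09, and after quantile normalization 45 rose and 3 fell. Proteasome genes gave 4 higher and 8 lower of 29 with a median of -0.06, a balance that became 4 and 4 when arrays were centred.

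Genes of the insulin and growth hormone axis changed singly. Igfbp2, an IGF-binding protein, lay between 9.64 and 11.26 under restriction (median 10.79) and between 7.81 and 10.37 on the normal diet (median 9.56), and 19 restricted arrays were above every normal-diet array (1.19 ± 0.13, adjusted p = 1.85e-12). Igfbp1, another IGF-binding protein, fell by 0.76. Socs2, a feedback inhibitor of growth hormone signalling, rose by 0.82 and the insulin receptor Insr by 0.21, while the growth hormone receptor Ghr fell by 0.25. Igf1 itself was at 0.07 and did not pass. Of the 19 measured genes of that axis 4 rose and 5 fell. Cdkn1a (-1.12) and Sesn3 (-0.61), both known FOXO targets, fell, in a list of 17 with 3 higher and 7 lower. Among 16 genes of NAD metabolism and sirtuins 3 rose, among them the mitochondrial sirtuin Sirt3 (0.20), and 7 fell, among them Sirt5 (-0.48) and the oxidase Aox1 (-0.50).

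Detoxification genes were among the large increases. Slc22a26, an organic anion transporter, lay between 5.23 and 9.94 under restriction (median 6.81) and between 2.98 and 6.42 on the normal diet (median 5.11). It had the largest increase of the genes with the same sign at all 6 times, 2.04 ± 0.31 (4.11-fold, adjusted p = 1.28e-07). Gsta2, a glutathione transferase, had medians of 9.92 and 7.89, and 18 restricted arrays were above every normal-diet array (1.93 ± 0.20, adjusted p = 4.8e-13). Cyp2b9 lay between 9.72 and 11.46 against 7.62 to 10.06 and rose by 1.22, and its neighbour in the cytochrome P450 family, Cyp2b13, rose by 1.36. Probes of such close paralogs may share signal. The nuclear receptor Nr1i3, known as CAR, which drives Cyp2b genes, rose by 0.49. Of 23 xenobiotic genes measured 10 rose and 5 fell, with a median of 0.11. The estrogen sulfotransferase Sult1e1 (-0.69, adjusted p = 0.0651 without ZT16 replicate 2) and Gstm2 (-0.53) were among those that fell. The NRF2 list did not move with them: Nqo1 rose by 0.22 (adjusted p = 0.059 without ZT16 replicate 2), and 3 of 9 fell, among them Nfe2l2 itself (-0.51). In the bile acid list 4 of 18 rose and 8 fell (2 and 7 without ZT16 replicate 2). Besides Slc10a2, the basolateral transporter Slco1a1 (-1.17) and the hydroxylase Cyp8b1 (-0.59) fell, whereas Cyp7a1, the rate-limiting enzyme of bile acid synthesis, was at 0.22 and did not pass.

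Some of these genes belong to the sex-biased set of mouse liver, which follows the pattern of growth hormone release. Of 9 measured genes known as male-biased 8 fell and none rose, with a median of -0.98. They included Cyp4a12a, a fatty acid hydroxylase (-1.69 ± 0.35, adjusted p = 5.95e-05), Elovl3 (-1.50), Slco1a1 and C6. Without the array ZT16 replicate 2, or with another scaling, 7 fell. Of 9 known as female-biased 4 rose, Cyp2b13, Cyp2b9, Acot3 (0.84) and Fmo2 (0.82), and Cyp17a1 fell by 1.49. As given above, Y-linked signal was at like levels in the arrays labelled female and male.

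Most genes of the macrophage, MHC class II and interferon lists fell when averaged over the day. Of 11 macrophage and Kupffer cell genes 9 fell and 1 rose, with a median of -0.56, and the same counts were found without ZT16 replicate 2 and without the other 2 arrays. Adgre1, which encodes the F4/80 antigen, fell by 0.81, the complement component C1qa by 0.69 and the Kupffer cell lectin Clec4f by 0.50. The scavenger receptor Marco rose by 0.80. Cd163, the haemoglobin scavenger receptor of macrophages, which was not in that list, also rose. It lay between 5.11 and 8.70 under restriction (median 6.95) and between 4.01 and 7.27 on the normal diet (median 5.25), a difference of 1.49 ± 0.20 (adjusted p = 5.05e-09). The mean of the macrophage list lay between 6.32 and 8.75 on restricted and between 6.97 and 9.45 on normal-diet arrays, so the groups overlapped. At single times no gene of that list was lower at ZT0, ZT4 or ZT8 (medians -0.28, 0.06 and -0.61). At ZT12, ZT16 and ZT20, 4, 6 and 4 were lower. Without the restricted array ZT4 replicate 2 the ZT4 median was -0.56. None of its genes passed for diet by time. Of 9 genes of MHC class II presentation 7 fell and none rose, with a median of -0.60, among them H2-Eb1 (-0.95), H2-Ab1 (-0.84) and Cd74 (-0.83). Averaged over the day the interferon response gave 13 lower and 1 higher of 16, with a median of -0.36. Ifit2 (-0.63) and Rsad2 (-0.59) were among those that fell. The list's median was 0.05 at ZT0 and 0.04 at ZT4, with no gene lower. It was -0.43 at ZT8 and ZT12, -0.58 at ZT16 and -0.57 at ZT20, with 4, 5, 8 and 8 lower. Without the restricted array ZT4 replicate 2 the ZT4 median was -0.22. Of the 16 genes 2 passed for diet by time (7 without the 2 arrays of uncertain hour). T and natural killer cell markers gave 6 lower of 12, among them Ccl5 (-0.61), and 1 higher (none higher without ZT16 replicate 2). Averaged over the day none of the 4 neutrophil genes passed. Their mean lay between 4.70 and 7.67 on restricted and between 4.34 and 9.65 on normal-diet arrays. At ZT4 3 of them were higher (median 1.23), at ZT16 all 4 were lower (median -1.33), and 3 passed for diet by time. Without ZT16 replicate 2 the ZT16 median was -0.35. Without the restricted array ZT4 replicate 2, which is at the top of the restricted range, the ZT4 median was 0.48. In that fit 2 of the 4 were lower over the day. The macrophage counts were the same without that array, 9 lower and 1 higher. Of 9 stellate cell and fibroblast genes 4 fell and none rose: the collagens Col1a1 (-0.67) and Col3a1 (-0.70), the retinol esterifying enzyme Lrat (-0.85) and the protease inhibitor Timp1 (-0.17). Endothelial markers gave 6 higher and none lower of 12, with a median of 0.05. Of 7 hepatocyte markers 3 rose, among them the transcription factor Hnf4a (0.45), and Alb was at 0.02 without passing. That count moved with scaling, to 6 of 7 after centring and 2 after quantile normalization. The part of cell number in these differences was not tested.

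Acute phase genes went both ways. Saa1, a serum amyloid A protein, lay between 6.51 and 12.67 under restriction (median 9.44) and between 9.72 and 13.58 on the normal diet (median 10.72). It fell by 1.71 (3.26-fold, adjusted p = 1.57e-09), Saa2 by 1.18 and the iron-binding lipocalin Lcn2 by 1.03. Orm2, an acid glycoprotein, lay between 8.47 and 11.77 against 7.39 to 12.27 and rose by 1.04 ± 0.21. Its call was lost in the arrays labelled male alone (0.49, limma adjusted p = 0.167). Of 20 acute phase genes 4 rose and 8 fell. Of 22 complement and coagulation genes 5 rose, among them coagulation factor F7 (0.41), and 6 fell, among them the terminal components C6 (-1.11) and C9 (-0.69). Dividing-cell genes gave 5 lower of 12 and none higher (4 lower and 1 higher after quantile normalization), with 8 lower when the restricted array ZT4 replicate 2 was left out. Those that fell included Spc25 of the kinetochore (-0.70) and the cyclin Ccnd1 (-0.65).

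**Figure D2:**
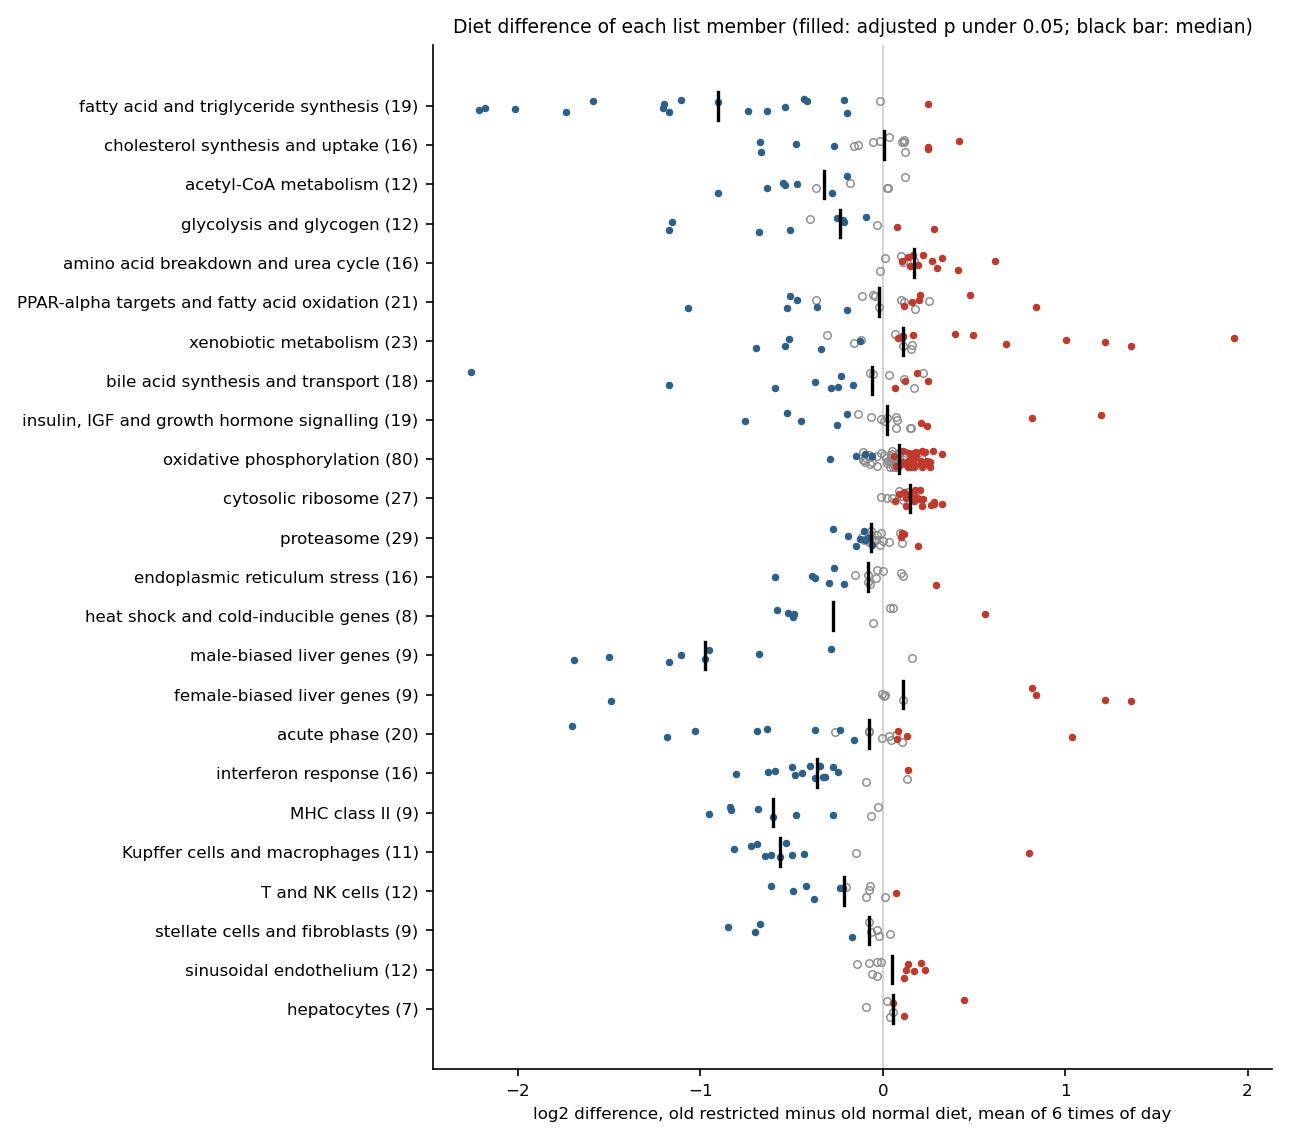
Averaged difference between restricted and normal-diet old liver (horizontal axis, log2) of each measured member of 24 gene lists. Filled points passed the adjusted threshold of 0.05, black bars are list medians and the number tested is in parentheses. The members of fat synthesis lie left of 0 around a median of -0.90, and those of the cytosolic ribosome lie in a narrow band around 0.15.

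Next, the diets were compared at each time of day. The number of genes past the threshold was 1273 at ZT0 (10.8%), 1437 at ZT4 (12.2%), 1144 at ZT8 (9.71%), 2480 at ZT12 (21.0%), 1905 at ZT16 (16.2%) and 984 at ZT20 (8.35%). Without the single array ZT16 replicate 2 the ZT16 count fell to 1192, below 1368 at ZT0, 1514 at ZT4 and 1248 at ZT8 in the same fit, so the order of the times rests in part on that array. The number of arrays, which these counts also depend on, was largest at ZT12. At ZT12 907 genes were higher (7.69%) and 1573 lower (13.3%), and at ZT16 917 were higher (7.78%) and 988 lower (8.38%). The ZT12 split moved with scaling, with 36.6% of calls higher as deposited, 55.2% after quantile normalization and 52.3% after centring. As deposited, the share of calls that were higher was 49.3% at ZT0, 25.5% at ZT4, 37.4% at ZT8 and 34.6% at ZT20. After quantile normalization these shares were 50.9%, 49.0%, 52.9% and 52.3%, so those of ZT4, ZT8 and ZT20 moved as well. List counts at single times are to be read against these shares. Whether the diet difference itself varied over the 6 times was tested in 1 model, and 2158 genes (18.3%) passed. Of these, 1018 did not pass for the averaged level, so that a comparison of daily means would not have shown them. Leaving out the 2 arrays of uncertain hour gave 2187.

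Serpina12 kept its difference around the clock: the restricted means ran from 5.68 to 6.20 over the 6 times and the normal-diet means from 8.48 to 9.73, each the mean of 3 to 5 arrays. It did not pass for diet by time, and neither did Slc10a2, Dio1, Mogat1, Me1, Pklr, Gbe1, Pck1 or Igfbp2. Many genes of fat synthesis behaved otherwise, 11 of 19 passing for diet by time (9 without ZT16 replicate 2). The median of the list was -1.31 at ZT8 and -1.27 at ZT12 but -0.25 at ZT16 and -0.32 at ZT20. Without ZT16 replicate 2 the ZT16 median was -0.46, and without the other 2 arrays the ZT20 median was -0.64. Fasn averaged 8.34 ± 0.12 (SD, n = 4) under restriction and 10.44 ± 0.30 (n = 3) on the normal diet at ZT8, a difference of -2.12. At ZT16 its means were 8.71 ± 0.34 (n = 4) and 8.77 ± 0.16 (n = 4), a difference of -0.09 (adjusted p = 0.9). Elovl6 differed by -3.07 at ZT8 and by -0.77 at ZT16, the latter without passing. Acly differed by -2.0 at ZT8 (adjusted p = 3.7e-06) and by 0.19 at ZT16, and its fitted daily peak lay at ZT 19.7 under restriction and at ZT 6.21 on the normal diet.

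Cholesterol synthesis changed direction with the hour. Averaged over the day, 3 of 16 measured genes rose and 4 fell, and the median was 0.01. At ZT12 the median was -0.88 with 10 genes lower, and at ZT16 it was 0.83 with 11 genes higher. After quantile normalization these medians were -0.85 and 0.86. The ZT16 median was 0.76 without ZT16 replicate 2 and 0.87 without the other 2 arrays. Sc5d, an enzyme of the last steps to cholesterol, averaged 9.93 ± 0.19 on the normal diet and 8.71 ± 0.07 under restriction at ZT12, a difference of -1.22 (adjusted p = 2.3e-05). At ZT16 its means were 8.90 ± 0.16 and 10.08 ± 0.34 in the same order, a difference of 1.18 (adjusted p = 0.00016). Mvd, a decarboxylase of the mevalonate pathway, differed by -1.08 at ZT12 and 1.55 at ZT16. Of the 16 genes 10 passed for diet by time.

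G6pc had a trough in the light phase under restriction. On the normal diet its means stayed between 11.79 and 12.37 at all 6 times. Under restriction they were 12.17 ± 0.27 at ZT0, 10.56 ± 0.44 at ZT4, 9.05 ± 0.16 at ZT8 and again 12.06 ± 0.15 at ZT12. The difference passed at ZT4 (-1.63, adjusted p = 4e-07) and ZT8 (-2.74, adjusted p = 1.1e-15) and at no other time. Ppp1r3b was lowest against the normal diet at the same hour (-1.58 at ZT8, adjusted p = 6e-09), as was the manganese transporter Slc30a10 (-2.26 at ZT8, adjusted p = 8.4e-09). Tubb2a, a beta tubulin, differed by -2.07 and Lgalsl by -1.80 at ZT8. Sphk2, a sphingosine kinase, differed by 2.72 at ZT4 (adjusted p = 4.9e-08) and -1.24 at ZT16 (-1.63 without the 2 arrays of uncertain hour), and its fitted peak moved from ZT 10.7 on the normal diet to ZT 7.81. Camk1d, a calcium-dependent kinase, differed by -1.41 at ZT8 and 1.81 at ZT16. The cell cycle inhibitor Cdkn1a differed most at ZT4 (-2.75, adjusted p = 1.5e-05).

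Some heat shock and endoplasmic reticulum chaperones were lower in the light phase and higher at ZT16 in restricted liver. Of the 8 heat shock and cold-inducible genes measured, 3 were lower at each of ZT0, ZT4 and ZT8, and 4 were higher at ZT16. Hsp90aa1, a cytosolic chaperone induced by heat, averaged 7.67 ± 0.35 at ZT4 and 10.36 ± 0.12 at ZT16 under restriction, against 9.22 ± 0.31 and 9.10 ± 0.16 on the normal diet. The difference was -1.57 at ZT4 (adjusted p = 4e-07) and 1.27 at ZT16 (adjusted p = 5.2e-06, and 1.25 without the 2 arrays of uncertain hour). Its fitted daily amplitude, the distance from mean to peak of a 24 h curve, was 1.38 under restriction and 0.36 on the normal diet. Hspb1, a small heat shock protein, differed by -1.11 at ZT8 and 1.72 at ZT16. Cirbp, an RNA-binding protein induced by cold, ran the other way, higher under restriction at ZT0 (1.33, adjusted p = 0.00013), ZT4 (1.15) and ZT8 (1.14), and at -0.51 at ZT16 without passing. In that list 6 passed for diet by time.

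Of the 16 endoplasmic reticulum genes measured, 5 were lower at ZT0, 5 at ZT4 and 4 at ZT8, and most did not pass at those hours. The median of the 16 was -0.29 at ZT0, -0.39 at ZT8 and 0.44 at ZT16, and at ZT16 10 of them were higher. Of the 16, 12 passed for diet by time, 12 without ZT16 replicate 2 and 11 without the other 2 arrays. Hspa5, the luminal chaperone BiP, averaged 10.10 ± 0.15 on the normal diet and 9.16 ± 0.33 under restriction at ZT0 (-0.94, adjusted p = 8.8e-05). At ZT16 its means were 9.47 ± 0.11 and 10.43 ± 0.35 (0.97, adjusted p = 3.7e-05). Creld2 differed by -1.59 at ZT0 and 1.32 at ZT16, Hyou1 by -0.87 and 1.34, and Manf by -1.22 and 1.19. The ZT16 differences of these genes, and of Sc5d, Mvd, Camk1d, Hsp90aa1 and Hspb1, also passed without ZT16 replicate 2 and without the 2 arrays of uncertain hour. Averaged over the day, 6 of the 16 fell and 1 rose, the pseudokinase Trib3 (0.29), whose diet by time call was lost without the 2 arrays of uncertain hour (adjusted p = 0.102).

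Because these chaperone genes moved together, their promoters were searched for the endoplasmic reticulum stress response element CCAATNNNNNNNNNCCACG, on either strand, in the 250 bases before the start site (RefSeq, GRCm38.p6). It begins with the CCAAT box, which alone was in 33.8% of windows. The whole element was in 37 of 32851 windows (0.113%), and by gene in 35 of 27025 with a window (0.13%). It was in 5 of the 14 listed genes that had a window. Of those 14 genes 10 passed for diet by time, with and without the element, and the 5 with it were among them. The list holds genes known for their part in endoplasmic reticulum stress, so a share above that of all genes may follow from that choice. A match describes letters only, not binding. The stretches of 100 bases around it are shown, each 5′ to 3′ on the strand of its gene, with the element in capitals. The element lies on the opposite strand in Creld2.
Creld2, chr15:88819479-88819578, plus strand: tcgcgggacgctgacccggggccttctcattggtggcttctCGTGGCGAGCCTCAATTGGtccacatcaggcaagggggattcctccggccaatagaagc
Dnajc3, chr14:118937786-118937885, plus strand: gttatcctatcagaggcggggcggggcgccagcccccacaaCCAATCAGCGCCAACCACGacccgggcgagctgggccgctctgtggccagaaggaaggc
Hsp90b1, chr10:86705595-86705694, minus strand: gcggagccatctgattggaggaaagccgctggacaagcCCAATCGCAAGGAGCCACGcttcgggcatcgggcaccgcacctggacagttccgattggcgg
Hspa5, chr2:34771984-34772083, plus strand: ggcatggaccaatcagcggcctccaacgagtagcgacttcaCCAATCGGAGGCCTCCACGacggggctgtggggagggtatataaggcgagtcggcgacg
Pdia6, chr12:17266450-17266549, plus strand: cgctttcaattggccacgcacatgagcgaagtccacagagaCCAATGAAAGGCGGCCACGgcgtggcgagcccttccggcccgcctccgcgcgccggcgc

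**Figure D3:**
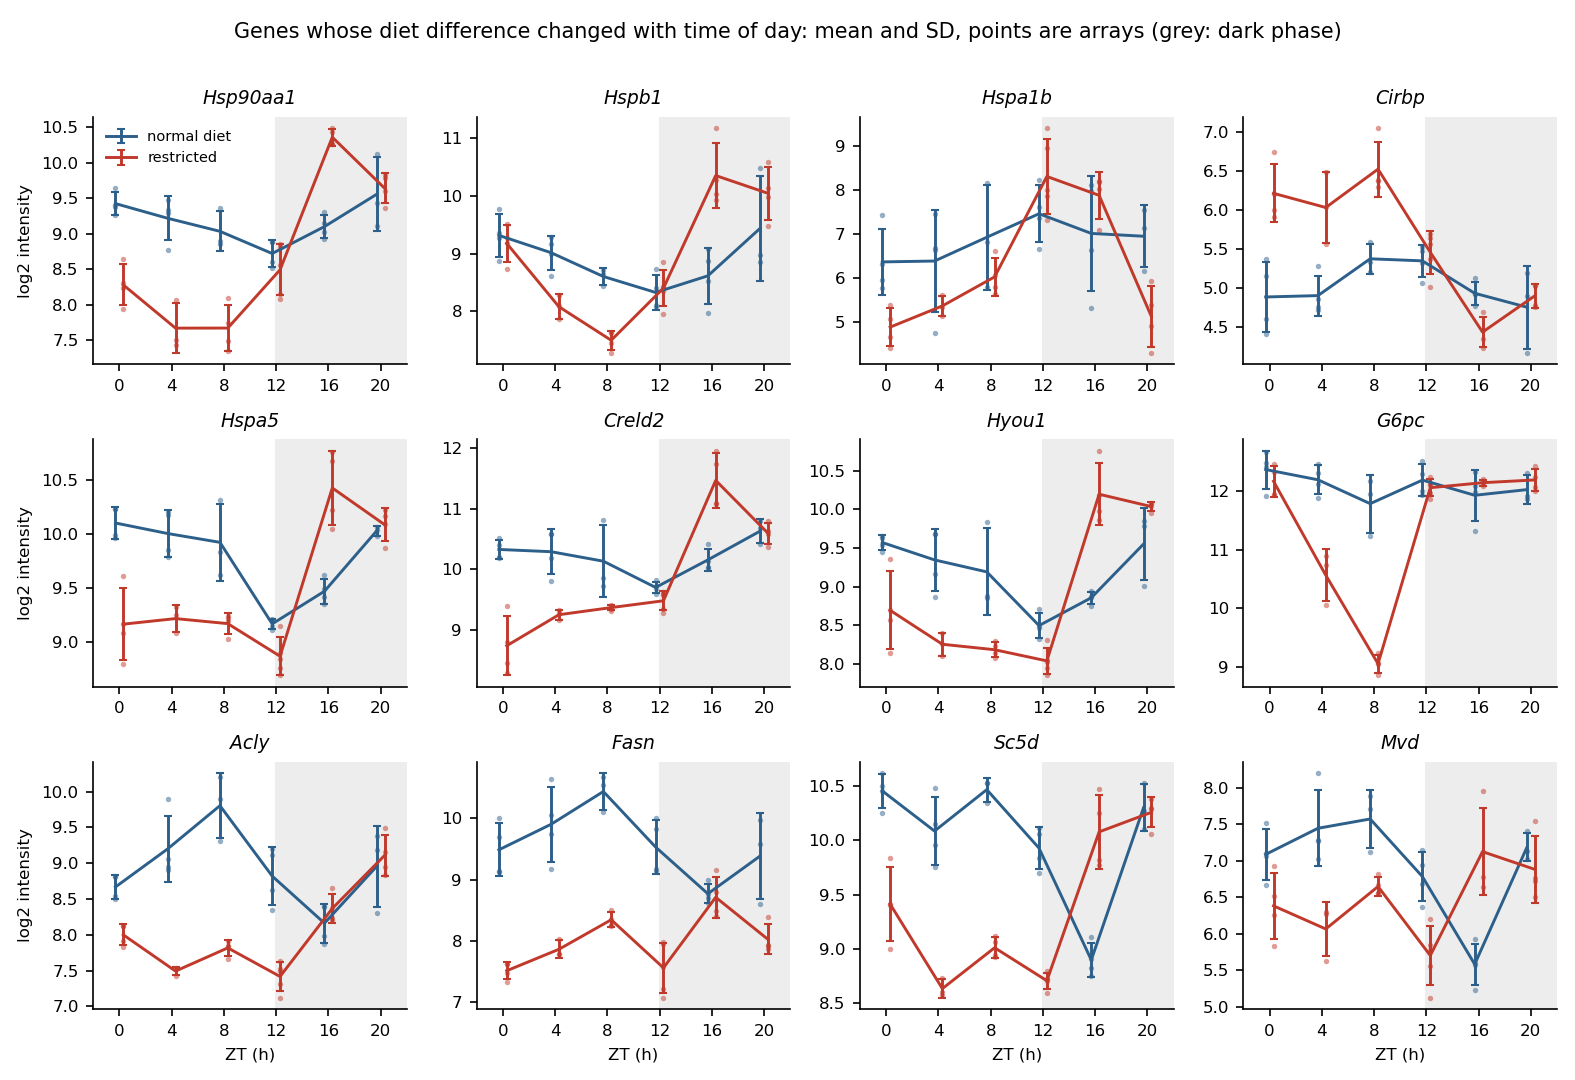
Log2 intensity (vertical axis) by zeitgeber time (horizontal axis, h) of 12 genes in old restricted (red) and old normal-diet (blue) liver. Points are arrays, lines join means with SD bars and grey marks the dark phase. Hsp90aa1, Hspa5, Creld2 and Hyou1 cross between light and dark, and G6pc drops to 9.05 at ZT8 under restriction only.

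The clock genes themselves differed in level and in timing. Of 18 measured, 7 were higher when averaged over the day (Cry1 0.46, Tef 0.39, Cry2 0.37, Ciart 0.35, Per1 0.33, Fbxl21 0.28 and Hlf 0.24) and the repressor Bhlhe40 was lower (-0.58). For diet by time 11 of the 18 passed (13 without ZT16 replicate 2, 11 without the other 2 arrays). Per2, a repressor of the clock, averaged 3.97 ± 0.20 under restriction and 5.86 ± 0.61 on the normal diet at ZT0, a difference of -1.89 (adjusted p = 1.4e-06). At ZT16 it averaged 8.55 ± 0.15 against 7.41 ± 0.68, a difference of 1.16 (adjusted p = 0.0024, and 0.88 without the 2 arrays of uncertain hour). Arntl differed by -0.62 at ZT4 and by 0.68 at ZT16 (0.86 without those arrays). At ZT20 Arntl differed by 0.60 (adjusted p = 0.017), a call that was lost without those arrays (0.40, adjusted p = 0.164). Nfil3, a repressor that opposes the activators Tef and Hlf, averaged 6.81 ± 0.17 under restriction and 8.42 ± 0.28 on the normal diet at ZT4 (-1.61, adjusted p = 4.9e-08), and at ZT12 it was higher (0.91).

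The 2 normal-diet arrays weighed on the values of several clock genes. Npas2 was at 5.99, 3.12 and 5.44 on the 3 normal-diet arrays of ZT20, the lowest being replicate 2, and averaged 7.07 ± 0.45 under restriction. The difference was 2.20 (adjusted p = 0.00015) with all arrays and 1.36 (adjusted p = 0.0127) without both. Per3 was at 6.02, 8.50 and 6.81 on those same arrays. Its ZT20 difference of -1.25 (adjusted p = 0.0072) was -0.57 and did not pass without both (adjusted p = 0.259). Nr1d2 was at 7.26, 7.01, 7.29 and 5.61 on the normal-diet arrays of ZT16, the lowest being replicate 4. It averaged 5.13 ± 0.47 under restriction, and the difference of -1.63 (adjusted p = 0.00049) became -2.04 (adjusted p = 8.31e-06). Cry1, by contrast, was higher at ZT16 (1.04) with all arrays and without both (1.2), but at 0.67 did not pass without ZT16 replicate 2 (adjusted p = 0.0583).

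**Figure D4:**
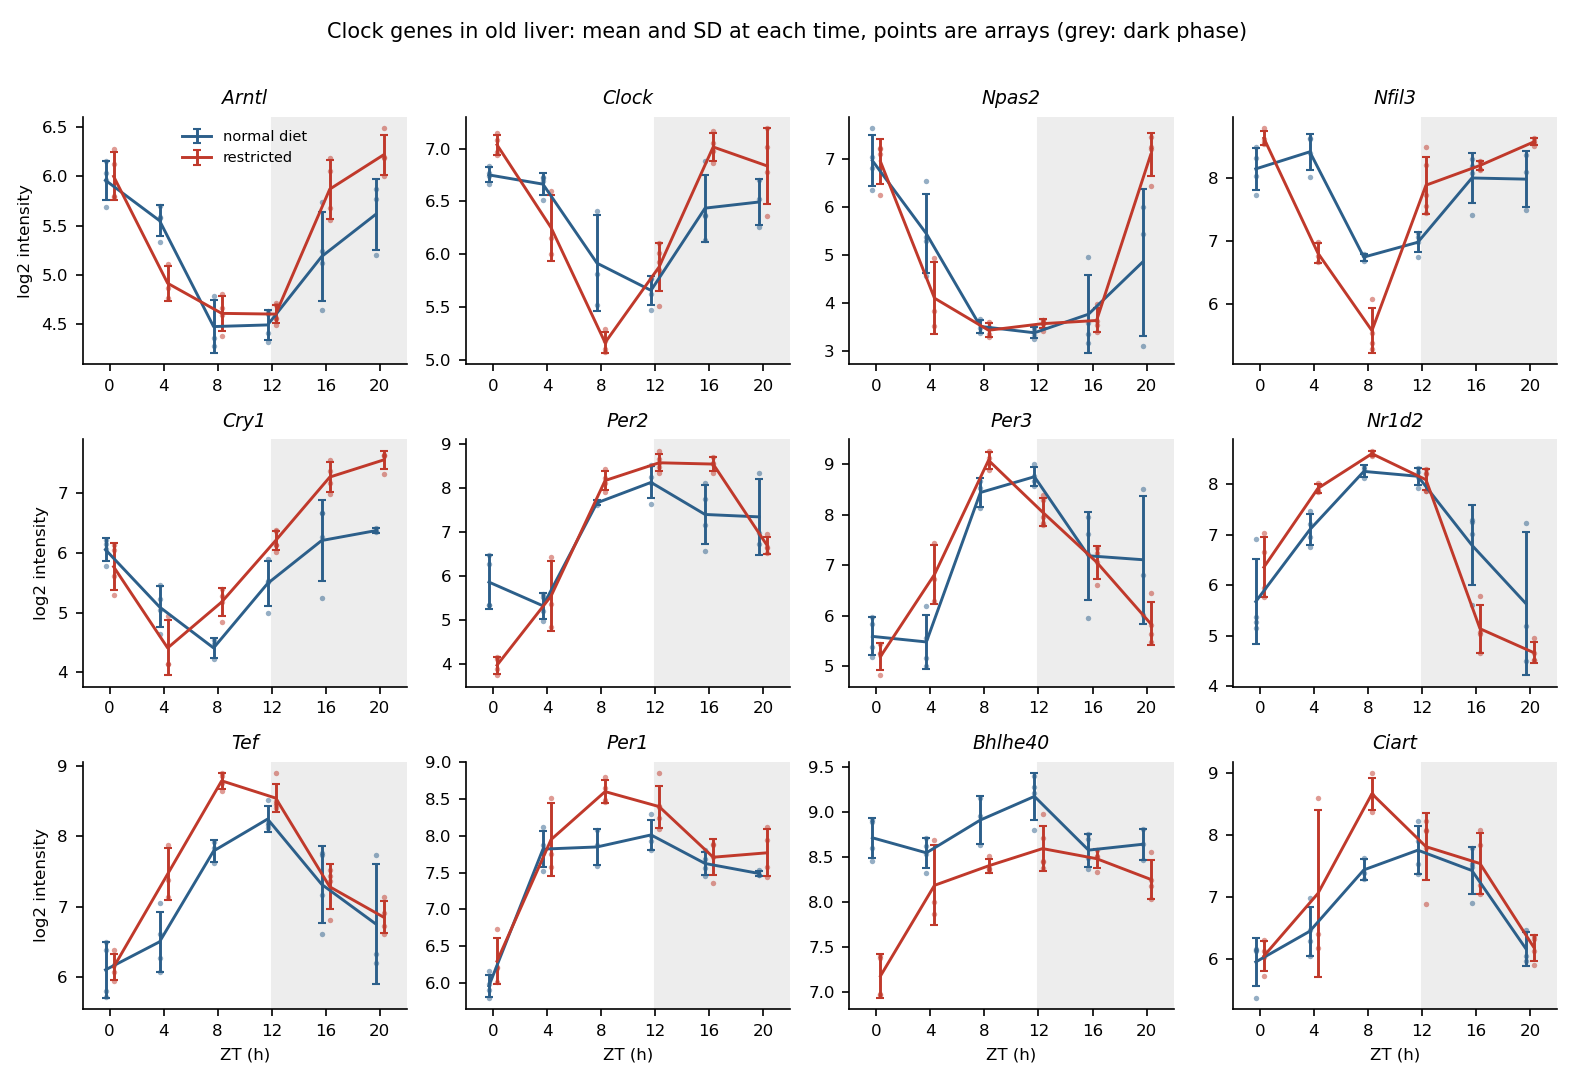
Log2 intensity (vertical axis) by zeitgeber time (horizontal axis, h) of 12 clock genes in old restricted (red) and old normal-diet (blue) liver. Points are arrays, lines join means with SD bars and grey marks the dark phase. The Per2 profile falls to 3.97 at ZT0 under restriction and to 5.33 at ZT4 on the normal diet, and single normal-diet arrays at ZT16 and ZT20 lie far from their group.

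Peak times were then read from a 24 h curve fitted to each group. Of the 18 clock genes, 14 were rhythmic in both old groups at an adjusted p of 0.05, and 13 of these peaked earlier under restriction, 9 by more than 2 standard errors. The median shift was -1.75 h with all arrays and -1.56 h without the 2 arrays of uncertain hour, when 12 of 14 peaked earlier, 8 of them by more than 2 standard errors. No test was made over the list. Over all 1968 genes rhythmic in both groups the median shift was -1.61 h, so the clock genes' shift was near that of rhythmic genes at large. Arntl peaked at ZT 20.6 ± 0.31 (SE) under restriction and ZT 22.9 ± 0.38 on the normal diet, a shift of -2.24 ± 0.49 h (-2.35 h without the 2 arrays). Nr1d2, which represses Arntl, shifted by -2.12 ± 0.50 h (-2.20 h) and Per3 by -2.25 ± 0.57 h (-2.15 h). Nfil3 had the largest shift of the 14, -3.43 ± 0.96 h (-3.41 h), and Clock shifted by -2.85 ± 0.73 h (-3.08 h). Per2 (-0.82 ± 0.66 h), Per1 (-0.16 ± 1.09 h), Cry2 (-1.23 ± 1.09 h), Hlf (-1.08 ± 1.12 h) and Fbxl21 (0.10 ± 1.26 h) shifted by less than 2 standard errors. Without the 2 arrays these shifts were -0.58, 0.03, -0.86, -0.41 and 0.12 h in the same order. The amplitude was higher under restriction in 13 of the 14, among them Per2 (2.29 against 1.26), Cry1 (1.5 against 0.95) and Nfil3 (1.36 against 0.70), and lower in Cry2 (0.36 against 0.41). Without the 2 arrays it was higher in 12 of 14. Higher amplitudes were not confined to clock genes. Over all 1968 genes rhythmic in both groups the median amplitude was 0.286 under restriction and 0.231 on the normal diet.

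The letters that the CLOCK and BMAL1 pair is known to bind, the E-box CACGTG (the same on both strands), were in 1978 of 32851 promoter windows (6.02%). By gene they were in 1854 of 27025 with a window (6.86%) and in 4 of the 16 clock genes that had a window (25%). Of the 16, 9 passed for diet by time. An E-box was in 2 of those 9 (22.2%), Cry1 and Tef. With so few genes, those that passed and those that did not were not compared. The stretches of Cry1 and Tef are shown with the E-box in capitals.
Cry1, chr10:85185062-85185161, minus strand: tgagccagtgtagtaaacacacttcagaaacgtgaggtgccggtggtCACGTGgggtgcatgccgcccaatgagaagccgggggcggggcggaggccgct
Tef, chr15:81802499-81802598, plus strand: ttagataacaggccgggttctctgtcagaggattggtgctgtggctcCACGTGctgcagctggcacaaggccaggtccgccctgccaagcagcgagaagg
Cry1 peaked at ZT 17.5 under restriction and ZT 19.3 on the normal diet, and Tef at ZT 10.0 and ZT 11.8. The other genes with an E-box in the window were Ciart and Per1.

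**Figure D5:**
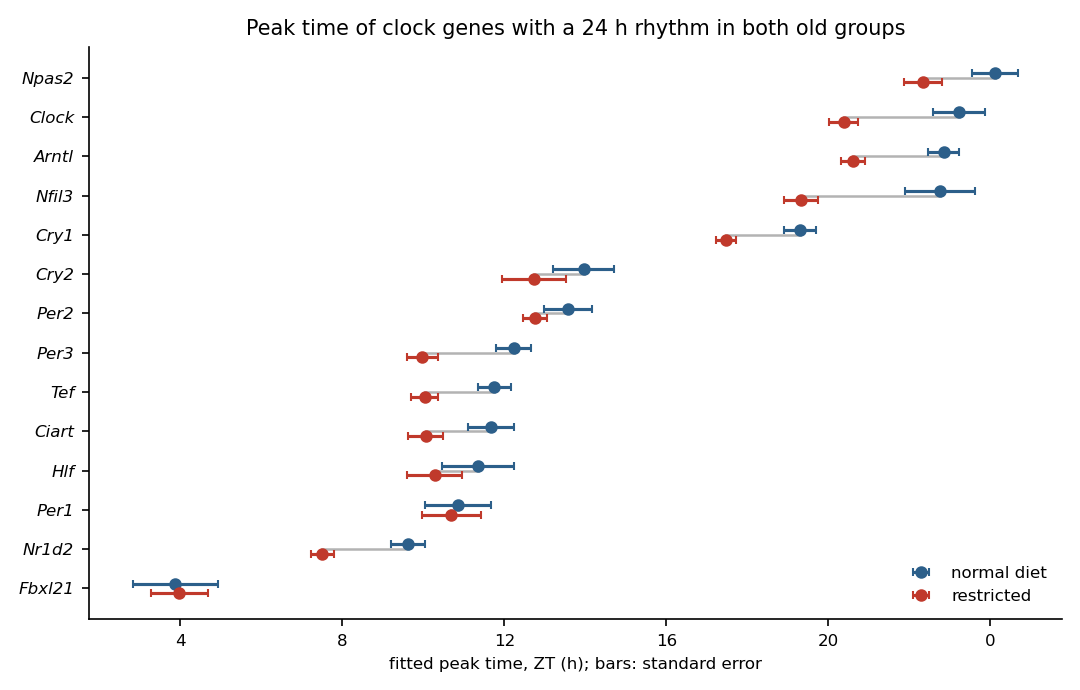
Fitted peak time (horizontal axis, zeitgeber time in h) with SE of the 14 clock genes rhythmic in both old groups, restricted in red and normal diet in blue. The restricted peak lies earlier for 13 of the 14, by a median of 1.75 h over all of them, and Fbxl21 is the exception.

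The spread between arrays of the same time was also set beside the shift. Within times, the median SD over the 18 clock genes was 0.240 under restriction and 0.297 on the normal diet, and 0.255 on the normal diet without ZT16 replicate 2. Without the 2 arrays of uncertain hour it was 0.259. Those 2 had been picked because these same clock genes lay far from the mean of their own time. A smaller spread of clock genes without them therefore largely follows from that choice. The normal-diet SD was the larger for 12 of the 18 clock genes with all arrays, for 9 without ZT16 replicate 2 and for 11 without the other 2. For Npas2 the SD was 0.381 under restriction and 0.772 on the normal diet (0.477 without the 2), and for Nr1d2 0.339 and 0.729 (0.447). Ciart went the other way, with 0.578 and 0.352 (0.361), as did Per1 with 0.304 and 0.190 (0.202). For both of these genes the restricted array ZT4 replicate 3 lay well above the other restricted arrays of its time. Over the clock genes that array lay at 0.78 from ZT8 and 0.79 from its own time. Arrays were left out on the normal diet only, so its part in the restricted SD of Ciart and Per1 was not tested. Over all genes the normal-diet SD was the larger in 58.3%, in 50.6% without ZT16 replicate 2 and in 55.3% without the other 2.

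Across the transcriptome, 5098 genes (43.3%) were rhythmic in old restricted liver and 3450 (29.3%) in old normal-diet liver. The groups differed in number of arrays and in spread, so these counts do not compare the groups gene by gene. A direct test of the 24 h curves found that 1547 genes (13.1%) differed, and the amplitude was higher under restriction in 1213 of them and lower in 334. Without the 2 arrays of uncertain hour 1704 differed, 1203 of them with the higher amplitude under restriction. Among genes rhythmic in both groups the median amplitude was 0.286 under restriction and 0.231 on the normal diet.

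Finally, the diet difference of old liver was set beside that of young liver, where 5152 genes (43.7%) passed, 2401 higher (20.4%) and 2751 lower (23.3%). The difference between the ages was tested directly and 2 genes passed (0.0170%), Gm10037 and Syce2, at 1109 genes with an unadjusted p under 0.05. Syce2, a protein of the meiotic synaptonemal complex, differed by 0.23 ± 0.04 in old and -0.01 ± 0.03 in young liver. Gm10037 differed by -0.15 ± 0.04 and 0.11 ± 0.03. The fat synthesis list gave 17 lower and 1 higher of 19 in young liver too, with a median of -0.83. Cd163 rose by 1.49 in old liver and was at 0.57 in young liver, and the difference between the ages of 0.92 ± 0.27 did not pass (limma adjusted p = 0.28). A p-value that misses the threshold does not show that the ages responded alike.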

How the data were processed

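Per the labels' protocols, whole-liver RNA was amplified from 25 ng over 17 cycles and labelled with biotin. The values used were the authors' deposited log2 intensities of 21261 probe sets, made with RMA per the submitters' processing notes. Its version was not given in the sources used here. They were used as deposited, with no further normalization.

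Gene names came from the annotation GEO holds for the platform, brought up to date through Entrez gene IDs (GRCm38.p6): 15869 had 1 symbol, 225 several and 5167 none, and 153 IDs were unmatched. Each gene took its probe set with the highest mean, and the lowest 25% of genes were left out, leaving 11787. limma 3.58.1 (R 4.3.3) fitted a mean for each of the 24 combinations of age, diet and time plus a term for labelled sex on all arrays, with 78 residual degrees of freedom, and separately a 24 h curve per age and diet group. The p-values of differences are two-sided, and all are adjusted over all genes. The code was tested on simulated data.

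The number of arrays limits the precision. Same-numbered replicates did not deviate together (21 pairs, r from -0.31 to 0.30), so no pairing was used. Alternatives covered scaling, filter, sex term, probe set choice, replicate block, labelled sexes apart, and arrays left out. The alternatives without 2 arrays of uncertain hour, and list counts without the normal-diet array ZT16 replicate 2 or the restricted array ZT4 replicate 2, were chosen after seeing the data. The comparison, gene lists and tests were chosen with earlier results of these data known. Genes were named by size of difference among those past the threshold with the same sign at 6 of 6 times (15 a direction), by rhythm difference (12), by range over times (10), by diet by age, from the clock list and as examples of each list. Predicted and sex-chromosome genes were left out of the choices by size, rhythm difference and range, but not of the others. The 10 genes without overlap were named after their values were seen.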

Additional observations from a re-analysis of the deposited data

Results flagged for a closer look

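Single arrays far from the others of their time were found in 12 of 252 groups tested (4.76%), where chance flags about 1 in 20. Times with only 3 arrays (restricted ZT4, normal-diet ZT8 and ZT20) were not tested. Restricted ZT4 replicate 2 and normal-diet ZT20 replicate 2 were therefore not screened here. On restricted arrays Npas2 was at 6.25 on ZT0 replicate 4 (next 7.09), Cry1 at 7.32 on ZT20 replicate 4 (next 7.61), Cirbp at 7.05 on ZT8 replicate 3 (next 6.39) and Fasn at 8.39 on ZT20 replicate 1 (next 7.93). On normal-diet arrays Nr1d2 was at 6.92 on ZT0 replicate 3 (next 5.36) and at 5.61 on ZT16 replicate 4 (next 7.01), and Acly at 9.89 on ZT4 replicate 2 (next 9.06). Among marker lists of the normal diet, macrophages stood at 7.77 on ZT0 replicate 1 (next 7.46), neutrophils at 9.65 on ZT16 replicate 2 (next 6.02), B and plasma cells at 5.87 on ZT4 replicate 3 (next 5.43) and stellate cells at 8.32 on ZT12 replicate 4 (next 7.67). B and plasma cells were at 5.93 on the restricted array ZT12 replicate 2 (next 5.23).

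The diet difference varied over the 6 times, by limma's test of that difference itself (adjusted p), in the genes that follow, which are those followed by time of day, those of the clock and endoplasmic reticulum lists, and those with the largest range or rhythm difference. Among clock genes it was 8.2e-13 for Nfil3, 9.5e-08 for Per2, 5.2e-06 for Clock, 1.6e-05 for Bhlhe40, 6.3e-05 for Cry1, 7.8e-05 for Per3, 0.00013 for Npas2, 0.00024 for Arntl, 0.00038 for Nr1d2, 0.012 for Timeless and 0.019 for Tef. Among heat shock genes and the cold-inducible Cirbp it was 2.3e-12 for Hsp90aa1, 2.2e-06 for Hspb1, 0.011 for Hspa1b and 7.9e-05 for Cirbp. Among endoplasmic reticulum genes it was 3.8e-09 for Creld2, 7.5e-09 for Hyou1, 1.1e-08 for Hspa5, 6e-07 for Manf, 0.00027 for Sdf2l1, 0.00036 for Hsp90b1, 0.0029 for Dnajc3, 0.0069 for Pdia6, 0.0083 for Xbp1, 0.014 for Pdia4, 0.021 for Herpud1 and 0.043 for Trib3. Among lipid and sterol genes it was 1e-09 for Sc5d, 2.2e-06 for Mvd, 2.4e-05 for Acly, 0.002 for Fasn and 0.0092 for Elovl6. For the others it was 8.2e-13 for G6pc, 1.6e-09 for Slc30a10, 4.3e-09 for Sphk2, 3.2e-08 for Camk1d, 7e-08 for Tubb2a, 1.1e-07 for Lgalsl, 0.0021 for Ltf, 0.0036 for Cdkn1a and 0.0057 for Car3. Ltf, a neutrophil granule protein, belongs to the neutrophil list, which was high on the normal-diet array ZT16 replicate 2. Ltf was at 10.47 on that array and at 8.84 on the restricted array ZT4 replicate 2, against at most 7.25 on any other old array. The diet difference in old and young liver differed for Gm10037 (adjusted p = 0.013, -0.26) and Syce2 (adjusted p = 0.02, 0.24).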

How the results depend on the processing

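Counts are given for level, diet by time, 24 h rhythm and diet by age, where the main values were 4993, 2158, 1547 and 2. Arrays labelled female alone gave 2036, 207, 101 and 0, and arrays labelled male alone gave 4137, 1377, 922 and 513. Without ZT16 replicate 2 of the normal diet, 1192 genes differed at ZT16 instead of 1905. Without both arrays of uncertain hour, 4 genes passed for diet by age, and the other counts were 4977, 2187 and 1704. The replicate block, for numbers that did not pair the samples, gave 4637, 1666, 1582 and 1, with 748 at ZT8 and 572 at ZT20, and no peak shift could be estimated under it. Leaving out each array in turn gave 4613 to 5136, 1787 to 2309, 1327 to 1672 and 2 to 6, with a clock shift of -1.98 to -1.45 h. Leaving out each replicate number gave 3829 to 4968, 1110 to 2134, 762 to 1447 and 0 to 2, with a clock shift of -2.10 to -1.68 h. By time those ranges were 563 to 1383 (ZT0), 710 to 1428 (ZT4), 354 to 1147 (ZT8), 1484 to 2326 (ZT12), 1014 to 1907 (ZT16) and 275 to 1210 (ZT20). Of 450 comparisons of the 30 genes with the largest level differences, 449 kept direction and call, Orm2 being the exception. The causes were not tested, beyond the fewer arrays in a part of the settings. Low signals limit the 3929 genes left out.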

Other observations

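Several genes with large level differences belong to no list. Pcp4l1 had medians of 7.13 under restriction and 5.17 on the normal diet, with 22 of 24 restricted arrays above every normal-diet array (1.86 ± 0.15). Enho, which encodes the secreted peptide adropin, rose by 1.3, the vasopressin receptor Avpr1a by 1.08, the prostaglandin transporter Slco2a1 by 1.10 and the F-box gene Fbxo21 by 1.12. Rarres1, a retinoic acid responder, differed by -2.10 and the adhesion receptor Adgrv1 by -1.97. Car3, a carbonic anhydrase, passed for diet by time with differences of -2.0 at ZT12 and 2.39 at ZT16 (the latter not passing without ZT16 replicate 2, adjusted p = 0.0827), and Bhlhe40 differed most at ZT0 (-1.54). In old liver 4993 genes passed and in young liver 5152, and for 7 that passed in both the signs were opposite.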
